A study of Mus musculus with 6 samples.

Results

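The genes studied here encode the machinery that releases hormone granules from endocrine cells. They were 10 genes chosen by symbol, namely the SNARE genes Snap25, Stx1a and Vamp2, the synaptotagmin genes Syt7 and Syt13, Rab3a, Rab27a and their scaffold Rims2, and the granule membrane genes Ptprn and Ptprn2. All 10 were found among the 44713 genes of the deposited table, and all 10 passed the filter on low counts that left 12760 genes for testing. RNA-seq was performed on rRNA-depleted total RNA of islets from 3 db/db mice and 3 db/m mice, male, on a normal diet and 10 weeks old. The db/db mice (BKS.Cg-Dock7m+/+Leprdb/Nju in the methods of the study) carry the db mutation of the leptin receptor gene on both chromosomes and develop obesity with diabetes, while the db/m mice were littermates without diabetes. The sample labels instead give the strain of both groups as C57BL/6 and the genotypes as Lepr-/- and wild type. The mutation alters splicing so that the long, signalling form of the receptor is lost in the whole animal, and an effect of that loss in islet cells and the diabetes of the mice cannot be told apart here. Each library is labelled as a separate numbered mouse, and nothing states that mice were pooled.

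In islet cells, hormone is stored in dense-core granules until a rise in calcium makes the granules fuse with the plasma membrane. Rab27a and Rab3a on the granule bring it to the membrane through effectors, and scaffolds such as Rims2 hold it near the calcium channels. The SNARE proteins Vamp2 on the granule and Stx1a and Snap25 on the plasma membrane then zip together and drive fusion, with synaptotagmins as calcium sensors. Ptprn (IA-2) and Ptprn2 (phogrin) are phosphatase-like proteins of the granule membrane, known as autoantigens of type 1 diabetes.

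Between 15641797 and 20614531 reads per library were counted on genes, so that a level of 3 counts, the limit that a count of 0 allows, corresponded to 0.146 to 0.192 CPM. Each of the 6 libraries held RNA of other pancreatic cells, and 14 acinar marker genes took 49.1% to 52.8% of the counts in db/db mice and 39.3% to 48.7% in db/m mice. The study instead describes the sequenced islets as free of acinar cells, from insulin staining that was positive in most isolated cells. Staining of cells and shares of RNA are unlike measures. Pan-endocrine genes (12 genes for granule cargo and endocrine transcription factors, such as Chga and Neurod1) took 0.0214% to 0.115% of the counts in db/db mice and 0.0959% to 0.580% in db/m mice. The highest of these values belonged to db/m replicate 1 and the lowest to db/db replicate 1, and both libraries stand apart in the results that follow. Of the 12 pan-endocrine genes 8 were lower in db/db islets at an unadjusted p under 0.05 (edgeR), as were 9 of 11 β-cell genes and 0 of 6 tested genes of α, δ, PP and ε cells. Duct markers were lower for 1 and higher for 1 of 6 genes at this level, endothelial markers lower for 1 of 6, stromal markers higher for 1 of 7, leukocyte markers lower for 1 of 6, and markers of neurons and glia lower for 1 of 5. No marker was at 0 in all 6 libraries. Median log2 fold changes were -1.66 for the pan-endocrine genes and -2.78 for the β-cell genes. For the genes of α, δ, PP and ε cells the median was -0.83, with a negative value for 5 of the 6 tested. Fewer endocrine cells and less RNA of these genes per cell cannot be told apart in such bulk samples. Counts of Lepr itself were 4, 10 and 68 for db/db and 37, 25 and 8 for db/m islets, and since the db allele alters splicing, a count over the whole gene does not check the genotype.

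Of the 10 genes, 6 were lower in db/db islets at an unadjusted p under 0.05 and none passed the threshold over all tested genes. The fitted log2 fold change was negative for 9 of the 10, all but Stx1a, against 50.1% of all tested genes, and for 7 without db/m replicate 1 and 6 with both libraries labelled 1 left out. It had a median of -0.95 over the 10 genes against -0.00093 over all genes tested. Adjusted p values lay between 0.0902 and 0.574 (edgeR's quasi-likelihood test), and 0.486% of the tested genes were called lower at an adjusted p under 0.05. At an unadjusted p under 0.05, 0 of the 10 genes were higher and 6 lower, against 9.89% of the tested genes that were lower at this level. The 6 were Snap25, Syt7, Syt13, Rab3a, Rab27a and Rims2. For all of these except Rab3a, every db/db mouse lay below every db/m mouse, which was the case for 12.6% of the tested genes. With DESeq2 the adjusted p was under 0.05 for 4 genes, Snap25, Syt7, Rab27a and Rims2, in a fit that called 707 of the 12760 tested genes where edgeR called 79. The call over all tested genes also depended on a single mouse: without db/m replicate 3, 3 genes (Snap25, Syt7 and Rims2) had an adjusted p under 0.05 in edgeR, where 333 of 13640 genes were called. With a score of the acinar markers as a covariate, the median of the 10 genes was -0.34, and the log2 fold changes were -0.81 for Syt7, -0.23 for Syt13 (unadjusted p = 0.4996 from edgeR), -1.22 for Rims2, -0.81 for Snap25 and -0.68 for Rab27a. In this fit 6 of the 10 genes had a negative value. At an unadjusted p under 0.05, 4 were lower and 1 was higher, namely Stx1a (1.12, unadjusted p = 0.0282 from edgeR). The share of all tested genes at this level was not counted for this fit.

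**Figure D1:**
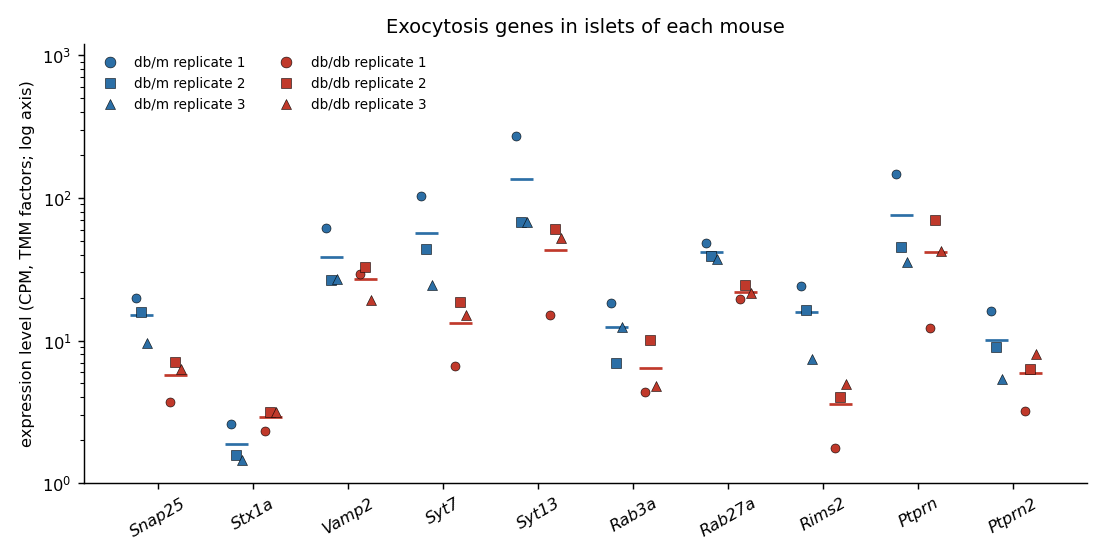
Expression level in CPM with TMM factors (log axis) of the 10 exocytosis genes in each mouse; points are mice and lines are group means. The db/m replicate 1 library has the highest level for 9 of the 10 genes and db/db replicate 1 the lowest for 8.

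Among the SNARE genes, the groups were separate for Snap25 alone. Snap25 lies on chromosome 2 of GRCm38 from 136713453 to 136782428. Its level was 3.69, 7.12 and 6.32 CPM in db/db mice and 19.7, 15.9 and 9.64 CPM in db/m mice (CPM, counts scaled to library totals with TMM factors, for replicates 1, 2 and 3). Every db/db mouse was below every db/m mouse, with means of 5.71 ± 1.79 (SD, n = 3) and 15.1 ± 5.10 CPM (SD, n = 3). The log2 fold change of Snap25 was -1.40 (SE, its standard error, 0.35, edgeR adjusted p = 0.108).

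Vamp2 (chromosome 11, 69088490 to 69092384) had 29.3, 32.8 and 19.3 CPM in db/db mice and 61.4, 26.5 and 26.8 CPM in db/m mice. Its groups overlapped, and the high mean of the db/m group came from replicate 1, at 2.30 times the mean of the other db/m mice. For Vamp2 the log2 fold change was -0.50 (SE 0.37, edgeR adjusted p = 0.561), and 0.050 without db/m replicate 1.

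Stx1a (chromosome 5, 135023482 to 135051100) was the gene with the lowest db/m level per length. It had 2.33, 3.17 and 3.16 CPM in db/db mice and 2.61, 1.57 and 1.46 CPM in db/m mice, from 27 to 71 counts per library. Here db/db replicates 2 and 3 were above all db/m mice, and db/db replicate 1 lay between db/m replicate 1 and the others. The log2 fold change of Stx1a was 0.61 (SE 0.40, edgeR adjusted p = 0.509) and 0.95 without db/m replicate 1. With both libraries labelled 1 left out, a comparison of 2 mice with 2 added after seeing the data, it was 1.10. There edgeR gave an unadjusted p of 0.0321 and an adjusted p of 0.355. Scaled by library size alone, the log2 fold change of Stx1a was -0.037, a setting in which the median of all genes moved to -0.59.

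Both synaptotagmin genes were lower in db/db islets at an unadjusted p under 0.05. Syt7, a calcium sensor of granule fusion in islet cells, lies on chromosome 19 from 10389090 to 10453180. It had 6.58, 18.5 and 15.1 CPM in db/db mice and 102, 43.9 and 24.6 CPM in db/m mice. The groups did not overlap, although the db/m mice ranged widely. Their means were 13.4 ± 6.12 (SD, n = 3) and 57.0 ± 40.5 CPM (SD, n = 3), and the log2 fold change of Syt7 was -2.09 (SE 0.54, edgeR adjusted p = 0.119). Without db/m replicate 1 it was -1.33, and its unadjusted p stayed under 0.05.

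Syt13, an atypical synaptotagmin that lacks the calcium-binding residues, lies on chromosome 2 from 92915098 to 92956058 and had the highest level per length in both groups. Its level was 15.1, 60.8 and 52.5 CPM in db/db mice and 273, 67.6 and 68.1 CPM in db/m mice. The groups were separate only narrowly, since db/db replicate 2 was close to db/m replicates 2 and 3. Fitted over all mice, Syt13 had a log2 fold change of -1.67 (SE 0.65, edgeR adjusted p = 0.274). It was -0.64 without db/m replicate 1 and -0.22 with db/m replicate 1 and db/db replicate 1 both left out (unadjusted p = 0.384 from edgeR), a comparison of 2 mice with 2 that was added after seeing the data.

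The genes of the Rab proteins and their scaffold were also lower at this level. Rab27a, the Rab of secretory granules, lies on chromosome 9 from 73044854 to 73097629 and showed the smallest spread between mice relative to its means among the 10 genes. It had 19.4, 24.6 and 21.7 CPM in db/db mice and 48.6, 38.8 and 37.0 CPM in db/m mice. The groups were well apart, at 21.9 ± 2.61 (SD, n = 3) and 41.5 ± 6.24 CPM (SD, n = 3). Rab27a had a log2 fold change of -0.92 (SE 0.22, edgeR adjusted p = 0.106), and it lay between -1.01 and -0.77 with each mouse left out in turn.

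Rab3a (chromosome 8, 70754679 to 70758677), a Rab of synaptic vesicles and dense-core granules, had 4.34, 10.04 and 4.77 CPM in db/db mice and 18.2, 6.93 and 12.4 CPM in db/m mice. The groups overlapped because db/db replicate 2 was above db/m replicate 2. Rab3a had a log2 fold change of -0.97 (SE 0.43, edgeR adjusted p = 0.334, or 0.0497 before adjustment). Its unadjusted p was 0.05 or more in 11 of the 17 other settings.

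Rims2, which binds Rab3 proteins and tethers calcium channels, lies on chromosome 15 from 39198261 to 39684372. It had 1.77, 4.01 and 4.98 CPM in db/db mice and 23.9, 16.4 and 7.42 CPM in db/m mice. No db/db mouse reached the lowest db/m mouse. The means were 3.58 ± 1.65 (SD, n = 3) and 15.9 ± 8.27 CPM (SD, n = 3), and the log2 fold change of Rims2, the largest in size among the 10 genes, was -2.14 (SE 0.49, edgeR adjusted p = 0.0902). It was -1.71 without db/m replicate 1 and -1.37 with both libraries labelled 1 left out (edgeR unadjusted p = 0.00952, adjusted p = 0.212).

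The granule membrane genes did not part the groups. Ptprn (chromosome 1, 75247027 to 75264502) had 12.2, 70.5 and 42.3 CPM in db/db mice and 146, 45.3 and 35.2 CPM in db/m mice. The range within each group was wider than the distance between the group means, with db/db replicate 1 at 0.216 times the mean of the other db/db mice and db/m replicate 1 at 3.63 times the mean of the other db/m mice. For Ptprn the log2 fold change was -0.86 (SE 0.66, edgeR adjusted p = 0.574), 0.073 without db/m replicate 1, and 0.53 with both libraries labelled 1 left out (unadjusted p = 0.118 from edgeR).

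Ptprn2 (chromosome 12, 116485720 to 117276849) had 3.21, 6.34 and 8.07 CPM in db/db mice and 16.1, 9.03 and 5.36 CPM in db/m mice. The lowest db/m mouse lay below all but the lowest db/db mouse. Ptprn2 had a log2 fold change of -0.79 (SE 0.45, edgeR adjusted p = 0.453) and -0.27 without db/m replicate 1.

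Parts of the exons of 4 of these genes are shared with other annotated genes, and the use of strand in counting is not given. The shared bases are 5.13% of the exons of Syt7 and 4.45% of those of Ptprn, with a gene on the opposite strand in both cases. For Rab27a 3.84% is shared with a pseudogene on the same strand, and for Rab3a 29 bases with Mpv17l2 on the opposite strand.

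Compared per kilobase of exon (RPKM from TMM-scaled CPM and the merged exons of GENCODE M21), Syt13 had the highest mean level in db/m islets, 36.3, followed by Ptprn (17.8), Rab27a (10.7), Vamp2 (10.04), Syt7 (7.61), Rab3a (5.63), Snap25 (2.22), Rims2 (1.53), Ptprn2 (1.18) and Stx1a (0.705). In this order the ranges over the 3 db/m mice overlapped for all neighbours except Rab3a and Snap25. In db/db islets Syt13 and Ptprn again had the highest mean levels per length (11.4 and 9.81), and Rims2 had the lowest (0.345). There the ranges of neighbours overlapped except for Rab27a (5.65) and Rab3a (2.87).

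The shares of the 10 genes in their own summed counts, which do not depend on library scaling, were also compared. Stx1a made up 2.38%, 1.33% and 1.77% of these counts in db/db mice and 0.366%, 0.578% and 0.641% in db/m mice, with all db/db mice higher. The exact Clopper-Pearson 95% intervals of the Stx1a shares reached down to 0.999% in the db/db mice and up to 0.931% in the db/m mice. These intervals cover counting error within a library and not the spread between mice. Syt7 made up 6.72%, 7.77% and 8.46% in db/db mice and 14.4%, 16.1% and 10.8% in db/m mice, with all db/db mice lower. Rims2 also had a lower share in all db/db mice, 1.80%, 1.68% and 2.79% against 3.36%, 6.04% and 3.25%. The shares of the other 7 genes overlapped between the groups. These shares are given as a description without a test, since the share of each gene depends on all others. How often shares within other sets of genes part the groups in this way was not counted.

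The 10 genes together had 1220, 3979 and 2648 counts in db/db mice and 19419, 4669 and 4212 counts in db/m mice. As CPM of the unscaled library totals these were 59.2, 236 and 163 in db/db mice and 1241, 289 and 221 in db/m mice. The difference of the means was -431 CPM with all mice and -102 CPM without db/m replicate 1. The groups overlapped, because db/db replicate 2 was above db/m replicate 3. The sum was highest and lowest in the same libraries as the pan-endocrine genes, db/m replicate 1 and db/db replicate 1. Relative to the counts of the 12 pan-endocrine genes, the exocytosis genes had 27.7%, 20.5% and 21.5% as many counts in db/db mice and 21.4%, 16.1% and 23.1% in db/m mice. This ratio overlapped between the groups, and its log2 value was 0.20 higher in db/db mice on average (-2.12 ± 0.23 against -2.32 ± 0.27, SD, n = 3 each). Relative to 4 endocrine transcription factors (Isl1, Neurod1, Pax6 and Insm1), the log2 ratio was 1.32 higher in db/db mice and every db/db mouse was above every db/m mouse. The part of endocrine RNA content in the lower levels of the exocytosis genes was not tested.

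**Figure D2:**
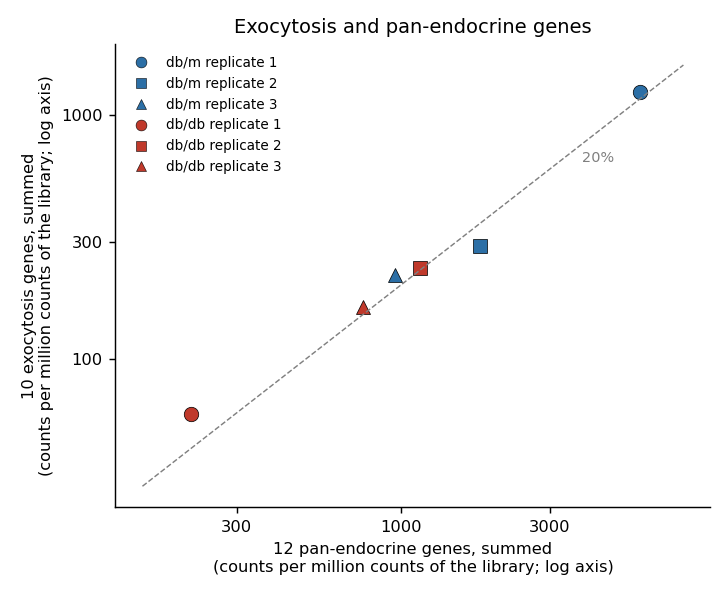
Summed counts of the 10 exocytosis genes against summed counts of 12 pan-endocrine genes, both in CPM of the library total on log axes, with 1 point per mouse; the dashed line marks 20% as many counts of exocytosis genes. The 6 mice run along this line from db/db replicate 1 (27.7%) to db/m replicate 1 (21.4%).

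When the libraries were scaled to the pan-endocrine genes in place of TMM factors, the median log2 fold change over all genes tested became 1.58 and that of the 10 genes 0.57. A change of scale moves all genes by nearly the same amount, so it can hardly change the distance of the 10 genes from the others. The median of the 10 genes minus that of all genes was -1.01, beside -0.94 with TMM factors. With libraries scaled to the pan-endocrine genes, Stx1a had a log2 fold change of 2.26. It was the single gene of the 10 with an unadjusted p under 0.05, while Rims2 (-0.53), Syt7 (-0.41) and Syt13 (-0.08) were the genes with a negative value. With a pan-endocrine score as a covariate, 1 of the 10 genes was lower (Rab27a, log2 fold change -0.62) and 2 were higher (Stx1a, 1.20, and Ptprn, 0.99) at an unadjusted p under 0.05. None of these passed the threshold over all tested genes. The share of all tested genes at an unadjusted p was not counted for these settings. The median of the 10 genes minus that of all genes was -0.12 with the pan-endocrine covariate and -0.30 with the acinar score as covariate.

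**Figure D3:**
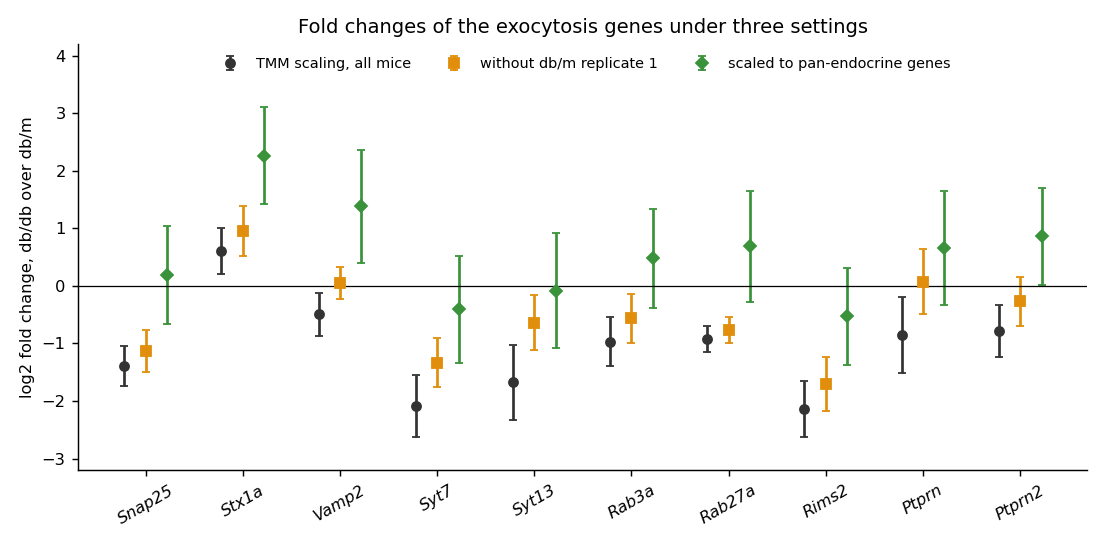
Log2 fold change (db/db over db/m) of the 10 exocytosis genes with its standard error under 3 settings: TMM factors with all mice, without db/m replicate 1, and with libraries scaled to 12 pan-endocrine genes. Values move upwards from the first to the third setting for each gene, for example from -2.14 to -0.53 for Rims2 and from 0.61 to 2.26 for Stx1a.

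Several of these proteins have a close relative that serves in acinar or other cells. The ratio of both was therefore taken within each library, and 5 pairs are given, as log2((count + 0.5)/(count + 0.5)). The Rab27a to Rab27b ratio was -0.05, -0.05 and 0.42 in db/db mice and 2.40, 2.85 and 0.57 in db/m mice, lower in every db/db mouse. Rab3a to Rab3d, the Rab3 form of zymogen granules, was -5.06, -4.06 and -5.01 in db/db mice and -2.70, -3.62 and -3.93 in db/m mice, again without overlap. Stx1a to Stx3 went the other way, with -1.94, -1.32 and -1.22 in db/db mice and -2.23, -3.02 and -2.48 in db/m mice.

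For these 3 pairs the exact permutation test gave p = 0.1 (two-sided, n = 3 each), the smallest p that 3 mice against 3 allow, and 0.15 after Benjamini-Hochberg adjustment over the 6 pairs tested. The groups overlapped for Snap25 to Snap23 (means of -1.11 in db/db and 0.19 in db/m mice, exact permutation p = 0.2) and for Vamp2 to Vamp8 (-0.60 and 0.17, exact permutation p = 0.3). Acinar markers moved with these ratios, since they took a larger share of the counts in every db/db mouse, and their part in the ratios was not tested. By themselves, the relatives showed log2 fold changes of -0.12 for Snap23, -0.46 for Stx3, 0.33 for Vamp8, 0.25 for Rab3d and 0.65 for Rab27b, with adjusted p between 0.446 and 0.884 (edgeR).

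**Figure D4:**
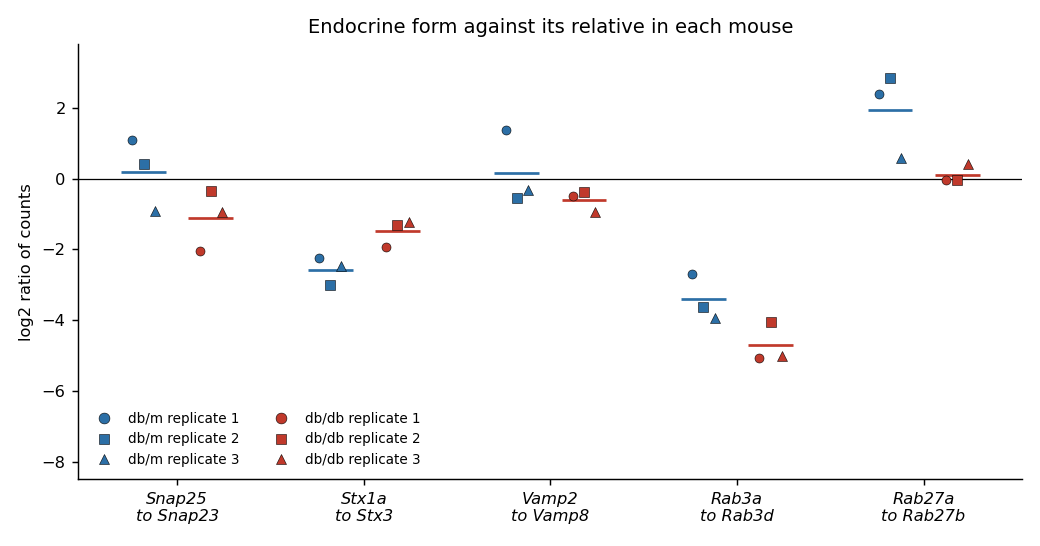
Log2 ratio of counts of the endocrine form to its relative in each mouse for 5 pairs; points are mice and lines are group means. The ratio is lower in every db/db mouse for Rab27a and Rab3a, higher in every db/db mouse for Stx1a, and overlapping for Snap25 and Vamp2.

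A wider set of 104 genes in 6 lists of the exocytosis pathway was then examined, of which 84 were tested. At an unadjusted p under 0.05, 26 of these were lower and 2 higher in db/db islets, beside the 9.89% of all tested genes that were lower, and 2 lower genes and 1 higher gene passed the threshold over all tested genes. The median log2 fold change of the 84 genes was -0.39. The share of all tested genes that were higher at an unadjusted p under 0.05 was not counted. The lower genes were found in those for priming and SNARE regulation, synaptotagmins, the Rab system and calcium channels, apart from 1 SNARE gene.

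The list of the other Rab3 and Rab27 genes held 10 lower genes of 23 tested at an unadjusted p under 0.05. Sytl4 (granuphilin), a Rab27a effector that docks insulin granules, had 2.01, 4.72 and 4.51 CPM in db/db mice and 64.9, 48.9 and 24.5 CPM in db/m mice. Each db/db mouse was far below the lowest db/m mouse, and Sytl4 had a log2 fold change of -3.61 (SE 0.45, edgeR adjusted p = 0.0148). Pclo (piccolo), a large active-zone scaffold, had 19.3, 31.7 and 27.2 CPM against 109.9, 101.7 and 59.7 CPM, with a log2 fold change of -1.79 (SE 0.31, edgeR adjusted p = 0.0453). Rims3, a short relative of Rims2, had 1.77, 4.78 and 8.47 CPM against 67.6, 158 and 20.1 CPM, and a log2 fold change of -4.02 (adjusted p = 0.0646 from edgeR). The calls depended on which mouse was left out, while the fold changes stayed between -3.90 and -3.26 for Sytl4 and between -2.01 and -1.61 for Pclo. Sytl4 had adjusted p values of 0.0585, 0.0820 and 0.0767 without db/db replicates 1, 2 and 3, and of 0.0163, 0.0447 and 0.00823 without db/m replicates 1, 2 and 3. Pclo had an adjusted p under 0.05 only without db/m replicate 3 (0.0204), and values between 0.0930 and 0.207 without any other mouse. Its adjusted p was also over 0.05 with upper-quartile factors (0.0619), library size alone (0.127), without the most abundant genes (0.0510) and with the acinar (0.0765) or pan-endocrine (0.225) covariate, and its log2 fold change was -0.17 with pan-endocrine scaling (adjusted p = 0.881 from edgeR). That of Sytl4 was 0.0723 with library size alone and 0.134 with pan-endocrine scaling.

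Of 12 other synaptotagmins and calcium sensors tested, 5 were lower and 2 higher at an unadjusted p under 0.05. Syt3, a calcium-binding synaptotagmin, was the higher gene that passed the threshold, with 14.9, 19.4 and 23.0 CPM in db/db mice and 5.98, 7.28 and 5.69 CPM in db/m mice. All db/db mice were above all db/m mice, and the log2 fold change of Syt3 was 1.60 (SE 0.25, edgeR adjusted p = 0.0341). Its adjusted p was 0.0648, 0.134 and 0.174 without db/db replicates 1, 2 and 3, and 0.0795, 0.0799 and 0.0430 without db/m replicates 1, 2 and 3. With library size alone its groups overlapped (log2 fold change 1.06, edgeR adjusted p = 0.241), and its adjusted p was 0.0581 with the acinar covariate, 0.0845 with the pan-endocrine covariate and 0.0647 with pan-endocrine scaling. The other higher gene was Syt15, chosen after its values were seen (log2 fold change 1.77, unadjusted p = 0.00888 from edgeR). Lower levels were found for Syt14 (log2 fold change -2.35) and Syt2 (-3.31), with adjusted p of 0.0648 and 0.0931 (edgeR). Syt2 had few counts, 6, 9 and 5 in db/db mice and 270, 34 and 30 in db/m mice. Without db/m replicate 1 the log2 fold change of Syt2 was -1.95.

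The list of priming and SNARE regulation held 5 lower genes of 17 tested at an unadjusted p under 0.05 and 0 higher. It joins priming factors, which make docked granules ready to fuse, with genes that regulate SNARE proteins in other ways. Stxbp5l (tomosyn-2), a SNARE regulator, had 1.04, 0.897 and 0.471 CPM in db/db mice and 8.92, 4.601 and 2.49 CPM in db/m mice, without overlap. Log2 fold changes were -2.73 for Stxbp5l and -2.09 for Unc13a (Munc13-1), with adjusted p of 0.0677 and 0.137 (edgeR).

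Voltage-gated calcium channel genes held 5 lower of 8 tested at this level and 0 higher. Cacna1d, a pore-forming subunit of L-type channels, had 29.8, 35.3 and 25.4 CPM in db/db mice and 97.7, 80.5 and 45.9 CPM in db/m mice. For Cacna1d the fitted value was -1.31 on the log2 scale, beside -1.58 for the auxiliary subunit gene Cacna2d1 and -2.13 for Cacna1b, with adjusted p of 0.0952, 0.117 and 0.145 (edgeR).

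Other lists held genes used in many cell types. Of 16 other SNARE genes tested, 1 was lower at an unadjusted p under 0.05, a share near that of all tested genes, namely Vamp4 (log2 fold change -0.58, adjusted p = 0.248 from edgeR), and 15 were not called in either direction, among them Vamp1 (-0.76, adjusted p = 0.448 from edgeR). The median of this list was -0.10. Of the 8 exocyst genes, whose complex tethers vesicles in many cell types, 0 were called at this level, the smallest p values being those of Exoc2, Exoc1 and Exoc4 (log2 fold changes of -0.68, -0.54 and -0.40, adjusted p from 0.346 to 0.469, edgeR). Differences between the lists were not tested.

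**Figure D5:**
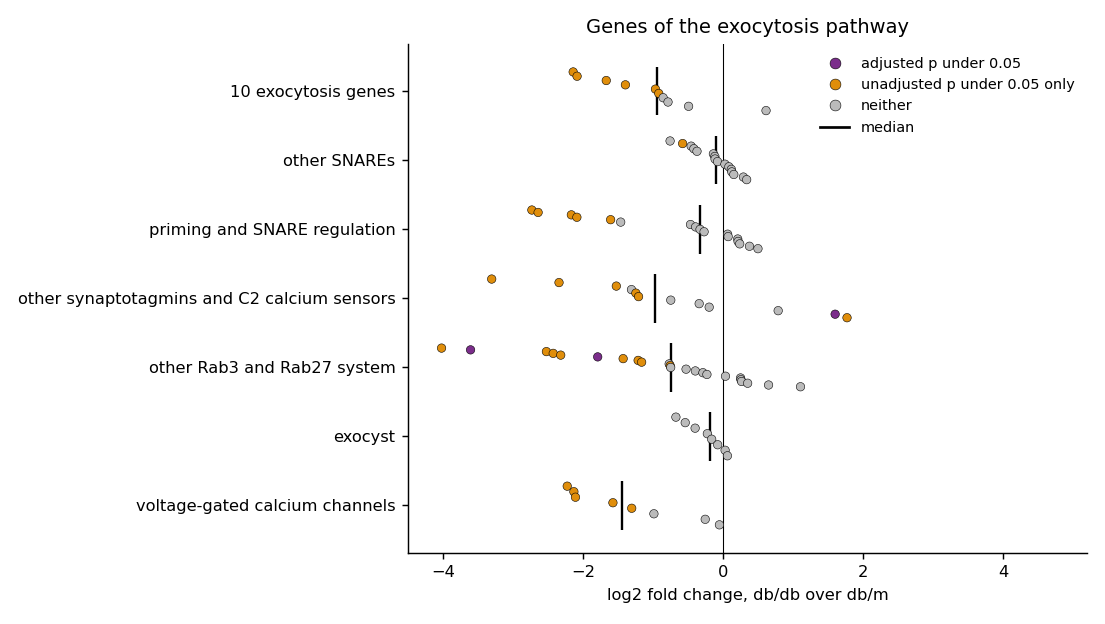
Log2 fold change (db/db over db/m) of the 10 exocytosis genes and of the tested genes in 6 pathway lists, 1 point per gene, coloured by the edgeR result, with the median of each list as a line. Medians lie at -0.95 for the 10 genes, -1.44 for calcium channels, -0.98 for other synaptotagmins, -0.75 for the other Rab3 and Rab27 genes, -0.33 for priming and SNARE regulation, -0.20 for the exocyst and -0.10 for other SNAREs.

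The mean profile of the 10 genes over the 6 mice (mean z score of log2(CPM + 1)) ran from -1.10 in db/db replicate 1 to 1.38 in db/m replicate 1, with the other 4 mice between -0.36 and 0.19. Syt13 and Syt7 followed the mean of the other 9 genes most closely (Pearson r of 0.979 and 0.963, n = 6 mice), and Stx1a did not follow it (-0.11). Among 7231 further genes with a mean of at least 5 CPM, those named as most like the mean profile were Vil1, Terf2, Eml6, Gnl3l, Nagk, Nfrkb and Resp18 (r from 0.992 to 0.997 over the 6 mice, and from 0.885 to 0.985 without db/m replicate 1 and db/db replicate 1). A value of r of 0.9 or more was reached by 445 of these genes, and all points share the same 6 libraries, so that the likeness is a description.

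Promoter sequences (RefSeq, GRCm38.p6, 250 bases before to 50 bases after an annotated start of the gene) were at hand for 5 of the 10 genes, Stx1a, Rab3a, Rab27a, Ptprn and Ptprn2, with 8 promoters in all, and not for Snap25, Vamp2, Syt7, Syt13 and Rims2. They were searched on both strands for motifs of factors known from neuroendocrine genes. REST, a repressor that keeps neuronal and endocrine exocytosis genes silent in other cells, binds the RE1 element, whose left part is TTCAGCACC and whose right part is GGACAGCGC. The left part was found in 0.371% and the right part in 0.405% of 32851 promoters. Ptprn2 alone of the 5 genes held them, and it was the only promoter in the table in which the right part followed the left part directly, without the 2 bases that part them in the usual form of the element. That usual spacing was found in 1 promoter, of a gene outside the 10. The stretch is shown because Ptprn2 is the gene of the 10 with this match. It lies on chr12:116485718-116485747 on the forward strand, with the match on the opposite strand in capitals, at bases 5 to 22 after the start:
Ptprn2: ccggtgGCGCTGTCCGGTGCTGAAgctcgg

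The letters TGACG, the core of the cAMP response element, were found in 20.8% of all promoters. Of the 8 promoters of these genes 4 held them, those of Stx1a, Rab3a, Rab27a and Ptprn. The full element TGACGTCA was found in 1.79% of all promoters and in 0 of the 8. The GC box GGGCGG is in 35.7% of all promoters and was found in 5 of the 8, which belong to all 5 genes. The stretches that hold the core before the annotated start of a promoter are printed. They are what a promoter each of Stx1a, Rab3a, Rab27a and Ptprn shares among the motifs with a less common match. Those of Rab27a and Ptprn belong to starts within the gene positions given above. The other promoters of Rab3a, Rab27a and Ptprn do not hold the core. These 4 genes had log2 fold changes from -0.97 (Rab3a) to 0.61 (Stx1a). The core, or its reverse complement, is in capitals, and the stretches lie on chr5:135023326-135023355 (forward strand), chr8:70754655-70754684 (forward), chr9:73064114-73064143 (forward), chr1:75264308-75264337 (reverse) and chr1:75264271-75264300 (reverse):
Stx1a: gagatcactagtTGACGaggggaggaacca
Rab3a: tccctcccctaaCGTCAcagcttcgtttgc
Rab27a: ggcccagccataTGACGagcagctgagact
Ptprn, first: cttacgccagtaTGACGcaaataggcataa
Ptprn, second: gggtggagatgtCGTCAttgcacgcctgca

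A match of letters describes the sequence and does not show that a factor binds there.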

How the data were processed

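Libraries of rRNA-depleted total RNA from islets of 3 db/db and 3 db/m mice were sequenced on a HiSeq sequencer. After trimming and quality filtering, the authors mapped the reads to mm10. The deposited table holds raw counts by gene symbol, 1 column a mouse, without normalization by the authors. The mapping program is TopHat in the methods of the study and HISAT2 2.0.4 in the submitters' processing notes, and the counting program, annotation and use of strand are not given in the sources used here.

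Counts were tested across all genes in R 4.3.3 with edgeR 4.0.16 (filterByExpr defaults, TMM factors, quasi-likelihood F-test, Benjamini-Hochberg adjustment over 12760 genes, threshold 0.05), with DESeq2 1.42.0 as an alternative. The SE of a log2 fold change was its absolute value divided by the square root of F. No pair of replicates agreed within sampling noise (chi-square over its degrees of freedom, 29.7 or more), and p-values measure the spread between these 3 mice per group. For ratios within a library, exact permutation tests (two-sided) were used. Genes were named by rule: the 10 genes, both genes of 6 fixed pairs, the 3 genes of smallest p in each of 6 pathway lists, and the 8 genes most like the mean profile. Stxbp3 and Adgre1 were matched under the older symbols Stxbp3a and Emr1. Results of 1 pair and of some genes that the rule named are not reported here. The genes, lists and pairs were chosen with earlier results of these data known. Positions and exon lengths were taken from GENCODE M21 (GRCm38) with Python 3.11.15, promoters from RefSeq, and figures were drawn with matplotlib 3.10.9. Counting limits (3 counts) and intervals cover counting error only. The scripts were tested on simulated data.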

Additional observations from a re-analysis of the deposited data

How the results depend on the processing

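Over all genes, 79 had an adjusted p under 0.05, and this count was 707 with DESeq2, 21 with library size alone, 52 with upper-quartile factors, 199 with libraries scaled to pan-endocrine genes, 888 without a filter on low counts, 25 with a pan-endocrine score as covariate and 10 to 333 with each mouse left out in turn. Of the 10 exocytosis genes, 0 were lower at this level, against 4 with DESeq2, 4 without the filter and 0 to 3 with a mouse left out. At an unadjusted p, 6 were lower, against 0 with pan-endocrine scaling (where the groups stayed apart for 2 lower genes, Rims2 and Syt7, and were apart in the other direction for Stx1a and Ptprn2) and 1 with the pan-endocrine covariate. With the replicate number as a block, 16 genes were called in all and 4 of the 10 were lower at an unadjusted p, and the adjusted p was 0.0773 for Sytl4, 0.205 for Pclo and 0.169 for Syt3. Shares of all tested genes at an unadjusted p, or with groups apart, were counted only for edgeR with TMM factors and all mice. Same-numbered mice did not deviate together (r of -0.53, -0.20 and -0.33), no mouse correlated best with its own number, and the mice share only a number. Directions changed as follows, and the cause was not tested. With pan-endocrine scaling, log2 fold changes were 0.19 for Snap25, 1.38 for Vamp2, 0.48 for Rab3a, 0.69 for Rab27a, 0.66 for Ptprn, 0.86 for Ptprn2, 1.45 for Snap23, 1.33 for Stx3, 1.02 for Vamp4, 0.79 for Vamp1, 0.77 for Exoc2, 0.95 for Exoc1, 1.10 for Exoc4 and 0.50 for Cacna1d. With library size alone they were -0.037 for Stx1a, -0.19 for Vamp8 and -0.28 for Rab3d. With an acinar score as covariate they were 0.15 for Vamp2, 0.57 for Ptprn and 0.15 for Ptprn2, and with the pan-endocrine covariate 0.078 for Vamp2, 0.080 for Syt13, 0.99 for Ptprn, 0.47 for Ptprn2 and 0.19 for Vamp1. With both libraries labelled 1 left out, chosen after seeing the data, they were 0.0097 for Vamp2, 0.53 for Ptprn and 0.044 for Ptprn2. With each mouse left out in turn, Vamp2 ranged from -0.68 to 0.050, Ptprn from -1.46 to 0.073 and Snap23 from -0.31 to 0.20. Snap25, Syt7, Rab27a and Rims2 kept a negative sign and an unadjusted p under 0.05 with any single mouse left out. Stx1a had the fewest counts of the 10 genes in db/m mice, 27 to 71 per library.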
